A study of Mus musculus with 6 samples.

Results

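The 10 genes followed here make, store and break down catecholamines: Th, Ddc, Dbh, Pnmt, Slc18a1, Slc18a2, Gch1, Cyb561, Maoa and Maob. They were taken by symbol, 10 of the 30406 genes that all 6 libraries list, and each was found in all 6. The nuclei came from frozen whole adrenal glands of female C57BL/6 J mice aged 10 to 11 months, 1 pair of glands a library, went through a sort with the DNA dye DAPI and were read with a droplet-based 3' protocol. The 2 KO libraries come from mice knocked out for Tmem127, which encodes a membrane protein of endosomes and lysosomes and is mutated in some human phaeochromocytomas, tumours of chromaffin cells, and the 3 WT libraries come from wild type mice. The labels give neither the deleted stretch of Tmem127 nor the cells in which it is lost. A sixth library is WT by its title and KO by its genotype field, so its values are given as those of the unassigned library and enter no test. No label says whether libraries share a litter or a day, so p-values measure the spread between these libraries.

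Chromaffin cells of the adrenal medulla make catecholamines from tyrosine. Th hydroxylates tyrosine with the cofactor tetrahydrobiopterin, whose synthesis starts with Gch1; Ddc turns the product into dopamine, Dbh makes noradrenaline inside the secretory vesicle, and Pnmt methylates noradrenaline to adrenaline in the cytosol of the adrenaline-making cells. Slc18a1 and Slc18a2 carry amines into vesicles, Cyb561 passes electrons across the vesicle membrane to renew the ascorbate that Dbh uses, and Maoa and Maob oxidise amines at the outer mitochondrial membrane.

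Of 21724 barcodes, 21033 nuclei were kept, between 2801 and 4476 a library. The median barcode held 5419 and 1289 unique molecular identifiers (UMIs, 1 per captured RNA molecule) in KO 1 and KO 2, against 7675, 1783 and 4114.5 in WT 1, WT 2 and WT 3. KO 1 and WT 1 were counted against a first annotation of 32285 genes and the other libraries against a second of 31053, so each annotation holds KO and WT libraries. A pair of libraries shared 2 to 9 barcodes. Tmem127 had 45.9 and 45.0 CPM in all nuclei of KO and 38.0, 38.1 and 36.1 CPM in WT, where CPM are the UMIs of a gene scaled to a total of 1000000 UMIs over the nuclei summed. A 3' count can lie outside the deleted stretch, so this level checks no label, and KO means the libraries labelled KO.

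Chromaffin-like nuclei were 1446 of the 21033, found by clustering without the 10 genes or the other genes of the pathway. They joined 3 clusters in which 14, 14 and 13 of 16 markers such as Chga and Chgb passed the naming rule. The 16 markers summed to 11124 and 11902 CPM in KO and 11368, 11141 and 11971 CPM in WT chromaffin-like nuclei, with none at 0 in any library. The 10 markers of zona fasciculata, a cortical zone, summed to 829 and 825 CPM there in KO and to 708, 1045 and 614 CPM in WT. KO and WT overlapped in both sums. Of 20 marker lists, 5 did not overlap in chromaffin-like nuclei. Zona glomerulosa markers summed to 317 and 432 CPM in KO, against 231, 298 and 316 CPM in WT, and pericyte markers to 39.5 and 58.1 CPM in KO, against 37.2, 34.1 and 22.6 CPM in WT. Schwann markers summed to 72.9 and 72.3 CPM in KO, against 104, 73.5 and 76.7 CPM in WT, and adipocyte markers to 19.7 and 22.7 CPM in KO, against 9.76, 16.6 and 7.21 CPM in WT. The kidney tubule markers did not pass 2.01 CPM in any KO or WT library. Their part in the results was not tested.

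RefSeq (GRCm38.p6) gives start-site windows for 6 of the 10 genes, and those of 5 are shown. Th, Gch1, Slc18a2 and Ddc, which has a pair of windows, differ between the chromaffin subclusters in 6 of 6 libraries, and Dbh is the enzyme within the vesicle. Each runs from 250 bases before to 20 bases after the annotated start, 5' to 3' on the strand of the gene. Capitals mark TGACG, the short form of the cAMP response element, on either strand, and so also the full element TGACGTCA, in which a TGACG of each strand overlap.
Th, chr7:142899976-142900245, minus strand: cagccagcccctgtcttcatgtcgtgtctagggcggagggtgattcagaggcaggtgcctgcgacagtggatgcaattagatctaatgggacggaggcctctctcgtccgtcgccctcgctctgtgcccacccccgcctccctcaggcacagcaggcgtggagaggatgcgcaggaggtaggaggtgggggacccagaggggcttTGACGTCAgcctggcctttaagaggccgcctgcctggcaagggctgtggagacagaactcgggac
Gch1, chr14:47189394-47189663, minus strand: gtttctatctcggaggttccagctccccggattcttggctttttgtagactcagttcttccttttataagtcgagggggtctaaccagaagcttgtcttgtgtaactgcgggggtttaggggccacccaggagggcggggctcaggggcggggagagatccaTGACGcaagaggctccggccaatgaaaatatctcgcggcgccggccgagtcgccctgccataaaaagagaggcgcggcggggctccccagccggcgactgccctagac
Slc18a2, chr19:59260628-59260897, plus strand: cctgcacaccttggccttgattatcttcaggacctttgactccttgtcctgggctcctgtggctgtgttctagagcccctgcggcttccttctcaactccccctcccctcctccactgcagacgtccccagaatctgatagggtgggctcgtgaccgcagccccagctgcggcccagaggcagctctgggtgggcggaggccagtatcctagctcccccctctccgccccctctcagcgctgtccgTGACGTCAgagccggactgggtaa
Ddc, chr11:11898125-11898394, minus strand: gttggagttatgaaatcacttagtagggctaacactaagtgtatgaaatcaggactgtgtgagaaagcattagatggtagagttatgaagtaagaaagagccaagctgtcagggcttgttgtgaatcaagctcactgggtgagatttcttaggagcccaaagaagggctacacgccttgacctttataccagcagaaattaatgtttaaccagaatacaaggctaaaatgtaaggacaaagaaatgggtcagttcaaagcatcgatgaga
Ddc, chr11:11890389-11890658, minus strand: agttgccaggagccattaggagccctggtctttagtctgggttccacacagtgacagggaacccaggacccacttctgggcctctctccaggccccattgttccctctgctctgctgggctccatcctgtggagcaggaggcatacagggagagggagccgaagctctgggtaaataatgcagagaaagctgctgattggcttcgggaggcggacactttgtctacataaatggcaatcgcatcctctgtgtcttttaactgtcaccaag
Dbh, chr2:27165257-27165526, plus strand: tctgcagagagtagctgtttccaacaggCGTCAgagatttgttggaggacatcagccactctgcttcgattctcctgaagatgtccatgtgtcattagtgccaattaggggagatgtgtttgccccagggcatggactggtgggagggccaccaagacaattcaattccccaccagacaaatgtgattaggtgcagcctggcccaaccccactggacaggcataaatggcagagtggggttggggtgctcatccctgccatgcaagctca
The full element TGACGTCA lies in the Th window from 45 bases before the start, and in the Slc18a2 window from 4 bases before the start and across it. Of all 32851 RefSeq windows of these 270 bases, 1.73% hold it. The short element TGACG, searched on both strands and part of the full one, is in 19.4% of windows, and begins 88 bases before the start in the Gch1 window and 222 bases before it, on the other strand, in the Dbh window. Neither Ddc window holds it, and the Maoa window, not shown, holds it from 209 bases before the start. The GC box GGGCGG, found in 34.1% of windows on either strand, occurs once in the Th window, on 2 places in each of the Gch1 and Slc18a2 windows and nowhere in the Dbh and Ddc windows. The TATA box TATAAA, in 12.9% of windows, lies on the other strand in the Gch1 window and in the first Ddc window, and the EGR site GCGGGGGCG, in 2.78%, lies in none of these windows. Such matches describe letters and not binding.

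The 4 enzymes from tyrosine to adrenaline had most of their UMIs in chromaffin-like nuclei in every library. Th (chromosome 7, 142892752 to 142931128, minus strand, mm10) had 871 to 2699 CPM in chromaffin-like nuclei, with a median of 1429 CPM over the 6 libraries, against 17.7 to 45.6 CPM in all other nuclei together. The class was 5.01% to 9.14% of nuclei and held 80.0% to 90.9% of the Th UMIs. No library came near an overlap of the 2 levels. Gene spans given here come from GENCODE and the windows above from RefSeq. The Th window, 142899976 to 142900245, lies within the Th span and not at its minus-strand start, 142931128.

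Ddc (chromosome 11, 11814101 to 11898144, minus strand) had 485 to 693 CPM in chromaffin-like nuclei, against 3.12 to 8.94 CPM in the others, and 89.8% to 96.5% of its UMIs lay in the class. Dbh (chromosome 2, 27165233 to 27183200, plus strand) had 300.1 to 496 CPM there, against 3.23 to 14.1 CPM elsewhere. Pnmt (chromosome 11, 98386450 to 98388181, plus strand), at 1732 bases the shortest of the 10 genes, had 159 to 631 CPM there, against 4.75 to 32.0 CPM elsewhere. The shares of their UMIs in the class were 83.2% to 91.7% for Dbh and 74.3% to 88.5% for Pnmt.

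Outside the class the Th level, as a median over the libraries, was 2.57% of the chromaffin-like one in zona fasciculata-like, 2.28% in endothelial-like and 2.501% in macrophage-like nuclei. The Ddc medians were 0.168% in macrophage-like, 0.581% in zona fasciculata-like and 2.59% in T or NK-like nuclei. Those of Dbh were 1.25% in capsule- or fibroblast-like and 2.71% in endothelial-like nuclei. Free RNA and RNA of these nuclei were not told apart. Of 50 hepatocyte-like nuclei, 46 came from KO 1. Those of KO 1 had 79 Ddc UMIs, or 128 CPM (exact 95% Poisson interval 101 to 159). Such intervals cover counting error only.

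**Figure D1:**
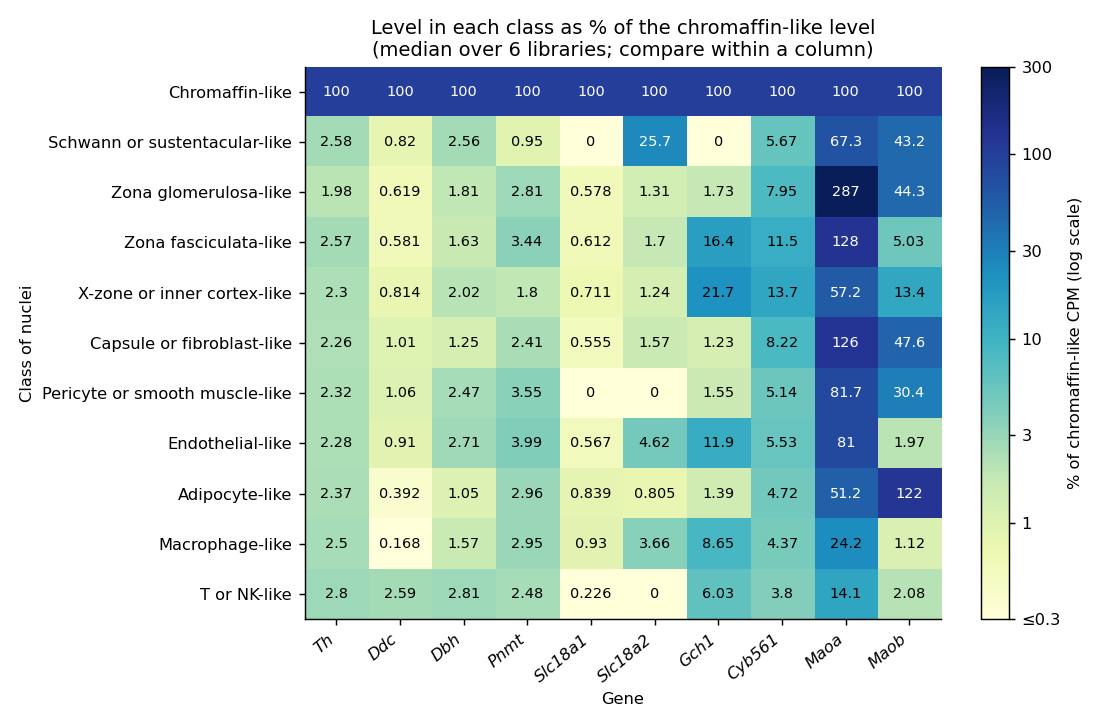
Level of each gene (columns) in each class of nuclei (rows) as a percent of its own chromaffin-like level, median over the libraries, on a log colour scale to be read within a column. Th, Ddc, Dbh, Pnmt and Slc18a1 do not pass 3.99% outside the chromaffin-like row, whereas Maoa stands at 287% in zona glomerulosa-like and Maob at 122% in adipocyte-like nuclei.

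Of the vesicle amine carriers, Slc18a1 (chromosome 8, 69037711 to 69089235, minus strand) had 519 to 900.3 CPM in chromaffin-like nuclei, against 4.02 to 5.70 CPM elsewhere, and 94.3% to 96.5% of its UMIs lay in the class. Slc18a2 (chromosome 19, 59260896 to 59296012, plus strand) had 155 to 216 CPM there, against 3.17 to 4.81 CPM elsewhere, with 83.4% to 90.6% of its UMIs in the class. Outside the class its median level was highest in Schwann- or sustentacular-like nuclei, with 18.9 and 175 CPM in KO and 75.8, 25.4 and 58.8 CPM in WT. These rest on 2 and 6 UMIs in KO and on 20, 2 and 6 in WT.

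Gch1 and Cyb561, the genes of the 2 cofactor steps, reached further into the cortex. Gch1 (chromosome 14, 47153895 to 47189413, minus strand) had 275 to 1100.05 CPM in chromaffin-like nuclei, against 40.1 to 50.3 CPM elsewhere, and the class held 43.2% to 82.6% of its UMIs. Its level parted the cortical zones: 98.4 to 179.9 CPM in X-zone- or inner cortex-like and 69.1 to 91.4 CPM in zona fasciculata-like nuclei, but 6.33 to 15.9 CPM in zona glomerulosa-like nuclei. These 3 ranges over 6 libraries did not overlap. The X-zone- or inner cortex-like class was 1 cluster in which 3 of 7 markers passed, the fewest that the naming rule allows. Endothelial-like nuclei had 51.2 to 68.1 CPM of Gch1 and macrophage-like nuclei 25.04 to 58.9 CPM. Cyb561 (chromosome 11, 105933702 to 105953336, minus strand) had 123 to 325 CPM in chromaffin-like nuclei, against 8.62 to 31.7 CPM elsewhere, and 52.7% to 70.6% of its UMIs lay in the class. Its cortical levels of 14.1 to 55.0 CPM in X-zone- or inner cortex-like and 9.24 to 41.2 CPM in zona fasciculata-like nuclei overlapped.

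Maoa (chromosome X, 16619698 to 16687818, plus strand) and Maob (chromosome X, 16709282 to 16817366, minus strand) point towards each other across 21463 bases and went with different cells. Maoa was highest in zona glomerulosa-like nuclei, named for the outer cortical zone that makes aldosterone. There it had 69.1 to 106 CPM, above the 18.5 to 46.8 CPM of chromaffin-like nuclei with no overlap. Of these 4589 nuclei, 3057 came from a cluster in which 11 of 12 zona glomerulosa markers passed the naming rule. The other 1532 came from a cluster led by Oca2 in which only 3 passed. Prss35, a marker of the X-zone or inner cortex list, was also among the leading genes of that cluster. All levels and tests of the class join both clusters. Zona fasciculata-like nuclei had 29.4 to 45.0 CPM and capsule- or fibroblast-like nuclei 37.5 to 55.9 CPM, and both overlapped the chromaffin-like range. Chromaffin-like nuclei held 4.18% to 17.4% of the Maoa UMIs.

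Maob had 48.9 to 97.8 CPM in chromaffin-like nuclei and 69.6 to 97.9 CPM in adipocyte-like nuclei, which overlap. It had 20.7 to 44.3 CPM in zona glomerulosa-like nuclei, but 2.49 to 4.97 CPM in zona fasciculata-like and 0 to 2.54 CPM in endothelial-like nuclei. The 2 cortical zones thus did not overlap for Maob either. In the hepatocyte-like nuclei of KO 1, Maob stood at 246 CPM (208 to 288) on 152 UMIs and Gch1 at 241 CPM (204 to 283).

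**Figure D2:**
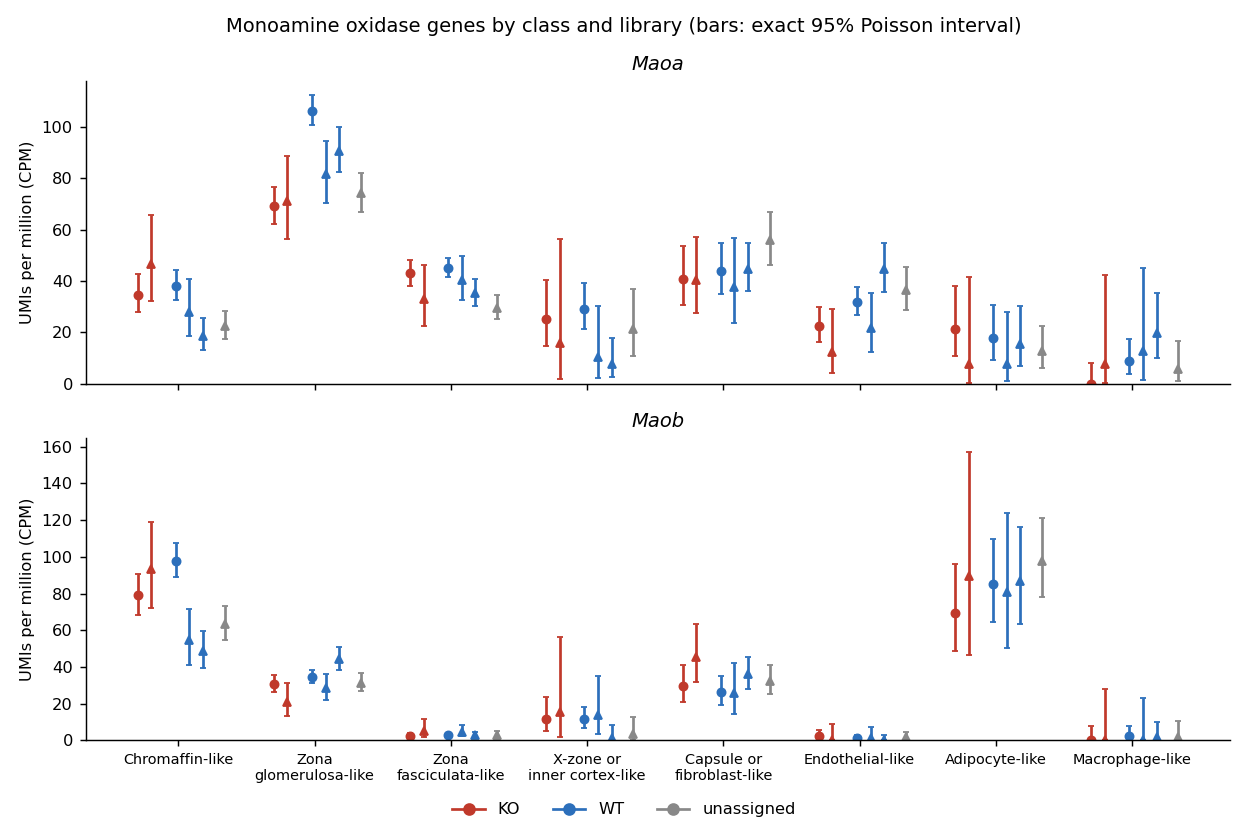
CPM of Maoa and Maob in 8 classes of nuclei, a point per library with its exact 95% Poisson interval (circles: first annotation, triangles: second). Maoa is highest in zona glomerulosa-like nuclei, at 69.1 and 71.1 CPM in KO and 106, 81.8 and 90.7 CPM in WT, and Maob does not pass 4.97 CPM in zona fasciculata-like nuclei.

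By the likeness of log levels over the 14 class means, the genes closest to Th included Mgat4c, Snap25, Chga and Chgb, with a Pearson r of 0.986 to 0.991. Closest to Pnmt were Scg2, Vdr, Rimbp2, Far2os2 and Syt4 (0.954 to 0.960). For Maoa they were E430024I08Rik, A830082K12Rik, Ift88, Prickle1 and Kif3a (0.878 to 0.933), and for Maob Fam13a, Acyp2, Dhtkd1, Dpyd and Pecr (0.785 to 0.808), 4 of which were highest in the hepatocyte-like class. The points of each r share libraries, and Chga, Chgb, Snap25 and Scg2 were among the markers that named the chromaffin-like class. The hepatocyte-like mean weighed the 46 nuclei of KO 1 equally with the 1 nucleus of WT 2 and the 1 nucleus of WT 3. Each r includes this point, so those of Maob are uncertain to that extent.

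Chromaffin-like nuclei parted into 7 subclusters, again without the 10 genes, of which subcluster 0 (798 nuclei) and subcluster 1 (358 nuclei) were large enough in every library to test. Hhip, Erbb4, Nell1, Syt16 and Hrh1 led subcluster 0, and Grm8, Dach2, Ptprz1, Cdh20 and Chrm1 led subcluster 1. Differences between subclusters are descriptions with no test, since both were made from these nuclei.

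Pnmt, the adrenaline enzyme, parted the subclusters in all 6 libraries. In subcluster 0 it had 234 and 966 CPM in KO, 414, 799 and 690.3 CPM in WT and 649.8 CPM in the unassigned library. In subcluster 1 it had 13.2 and 112 CPM in KO, 17.7, 41.8 and 15.6 CPM in WT and 10.5 CPM in the unassigned library. The ranges did not overlap, and the ratio of subcluster 0 to subcluster 1 ran from 8.65 to 61.8 with a median of 21.3. Subcluster 1 held only 9 and 15 Pnmt UMIs in KO and 25, 9 and 5 in WT. Outside the chromaffin-like class Pnmt had 5.98 and 32.0 CPM in KO and 4.75, 26.1 and 7.93 CPM in WT.

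Th and Gch1 were also higher in subcluster 0 in 6 of 6 libraries. Th had 1272 and 1669 CPM in KO and 1120.1, 2091 and 1641 CPM in WT in subcluster 0, and 603 and 729 CPM in KO and 538, 549 and 823 CPM in WT in subcluster 1. The ratio of subcluster 0 to subcluster 1 was 1.99 to 3.81 for Th and 1.26 to 3.71 for Gch1, with medians of 2.20 and 2.91.

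Slc18a2, Cyb561 and Ddc went the other way in 6 of 6 libraries. Slc18a2 had 111 and 111 CPM in KO and 105, 148 and 115 CPM in WT in subcluster 0, and 349.7 and 387 CPM in KO and 265, 288 and 321 CPM in WT in subcluster 1. These ranges did not overlap, and subcluster 1 stood 1.95 to 3.49 times as high. For Cyb561 the corresponding ratio was 1.23 to 2.15 and for Ddc 1.15 to 1.63, with ranges that overlapped. The 2 vesicle carriers therefore differed from each other, since Slc18a1 was higher in subcluster 0 in 4 of 6 libraries.

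Dbh was higher in subcluster 1 in all libraries but WT 2, with ratios of subcluster 0 to subcluster 1 of 0.748 to 1.15. Maoa was higher in subcluster 0 in 2 and Maob in 4 of the 6 libraries. Among uptake carriers, named after their values were seen, Slc6a4, the serotonin transporter, had 308 to 448 CPM in subcluster 0 and 13.9 to 59.5 CPM in subcluster 1. Slc6a2, the noradrenaline transporter, had 17.6 to 139 CPM and 0 to 12.5 CPM. Both were higher in subcluster 0 in 6 of 6 libraries.

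The subclusters differed in depth and in markers of other cells too. The median nucleus held 9689 and 2841 UMIs in KO and 15957, 4277 and 11565 in WT in subcluster 0, and 9854 and 1927 in KO and 14131, 2802 and 8761 in WT in subcluster 1. The 7 ganglion neuron markers summed to 167 to 267 CPM in subcluster 0 and to 716 to 946 CPM in subcluster 1, with 2 to 4 of them at 0 in each library of either subcluster. The 8 Schwann or sustentacular markers summed to 24.6 to 39.9 CPM in subcluster 0 and to 101 to 299 CPM in subcluster 1, with 3 to 5 at 0. The 8 pericyte or smooth muscle markers summed to 11.5 to 23.2 CPM in subcluster 0, with 2 to 6 at 0, and to 71.7 to 223 CPM in subcluster 1, with 1 to 6 at 0. These 3 of 20 lists had ranges that did not overlap. Rgs5, on the pericyte list, was also among the leading genes of subcluster 1, so that list was not independent of the subcluster. The 16 chromaffin markers were higher in subcluster 0 in 6 of 6 libraries, at 11450 to 15259 CPM, against 8898 to 12682 CPM in subcluster 1. Their part in the differences between subclusters was not tested.

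**Figure D3:**
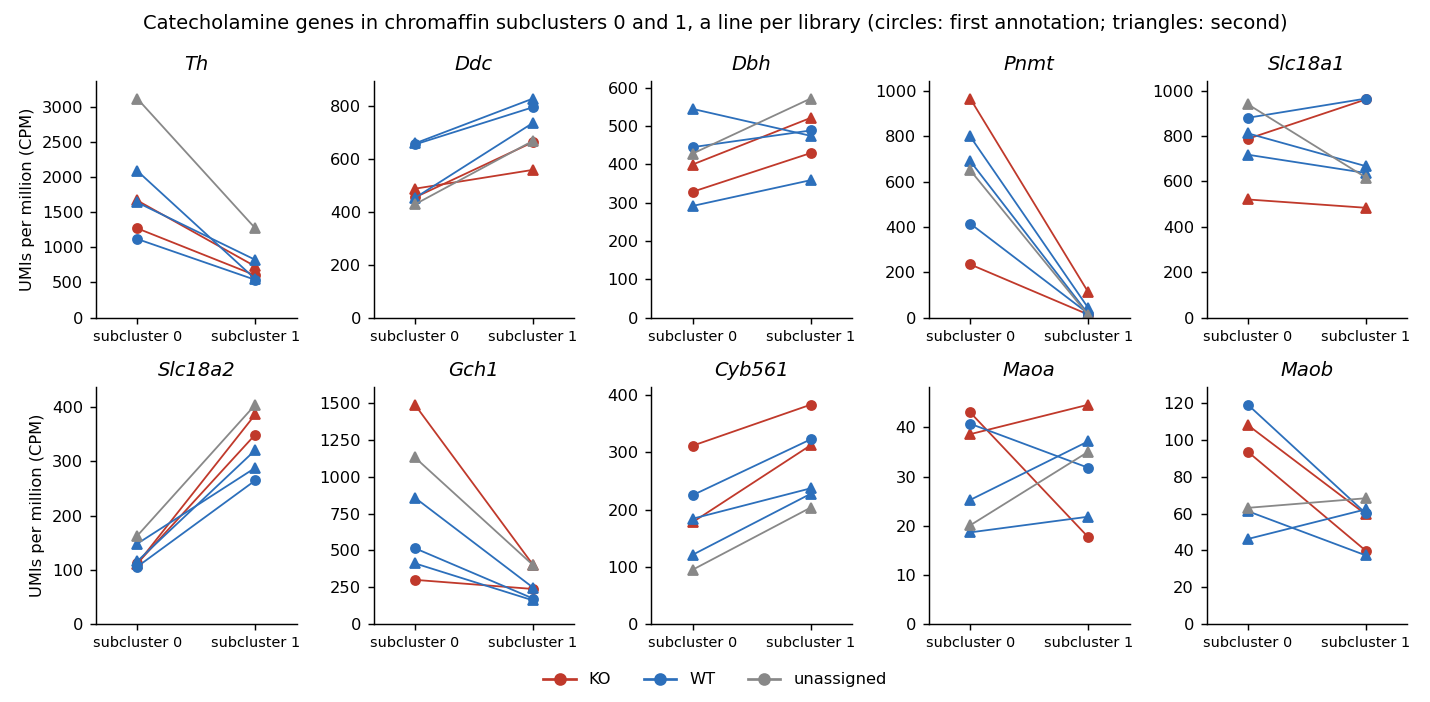
CPM of the 10 genes in chromaffin subcluster 0 (left in each panel) and subcluster 1 (right), a line per library in the colour of its group. Every line is lower on the right for Th, Pnmt and Gch1 and higher on the right for Ddc, Slc18a2 and Cyb561, and the Pnmt lines end between 10.5 and 112 CPM.

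Subcluster 2 (173 nuclei, led by Kctd8 and Asxl3) had 66.3 and 173 CPM of Pnmt in KO and 71.3, 179 and 152 CPM in WT, above subcluster 1 and below subcluster 0 in every library. Its Th level was 1161 and 1499 CPM in KO and 955, 1239 and 1525 CPM in WT. WT 3 gave it 16 nuclei, too few to test. The median nucleus of subcluster 2 held 5321 and 1709.5 UMIs in KO and 12007, 2370 and 7797 in WT. This was below subclusters 0 and 1 in every library, and the part of depth in its Pnmt level was not tested. The other 4 subclusters held 22 to 36 nuclei each.

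Nuclei were compared one by one after each was thinned to 1000 UMIs, since a deeper nucleus shows more genes. Among chromaffin-like nuclei, Th was then seen in 57.1% and 67.3% for KO and in 52.3%, 70.1% and 65.3% for WT, and in 0.984% to 5.86% of zona fasciculata-like nuclei, which should lack it. Unthinned, the chromaffin-like share was 81.6% to 98.9%. In subcluster 0, 22.3% and 55.7% of nuclei for KO had Pnmt, beside 32.6%, 46.8% and 47.3% for WT. In subcluster 1, 1.69% and 8.51% for KO had it, beside 3.19%, 5.08% and 2.86% for WT. Zona fasciculata-like nuclei had it in 0.416% to 4.05%, a range that overlaps that of subcluster 1. Shallower nuclei were left out, 10 of KO 2 and 2 of WT 2 in subcluster 0 and 8 of KO 2 and 3 of WT 2 in subcluster 1.

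Nuclei with Pnmt also had Th more often than nuclei without it. Among thinned chromaffin-like nuclei with a Pnmt UMI, 66.7% and 76.9% in KO and 64.2%, 82.5% and 75.4% in WT also had Th, against 55.2% and 62.0% in KO and 49.6%, 64.9% and 60% in WT of those without one. The first share was higher in 6 of 6 libraries. Slc18a2 was seen less often beside Pnmt in all libraries but WT 1, where it was seen in 15.1% beside Pnmt and 14.5% without it. No UMI of any of the 10 genes was left in 3.75% and 3.64% of chromaffin-like nuclei in KO and in 3.91%, 3.74% and 4.55% in WT. Maoa, seen in 1.67% to 4.55% of them and in 2.86% to 5% of zona fasciculata-like nuclei, was too sparse to read nucleus by nucleus.

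KO was compared with WT in chromaffin-like nuclei on UMIs summed per library, with the annotation as a batch term. None of the 10 genes passed edgeR's quasi-likelihood test at an adjusted p of 0.05, nor did any of 11044 genes (0%). At an unadjusted p under 0.05 there were 0 of the 10 genes and 565 of all genes, and DESeq2 called 0 of the 10 and 11 of all. Without WT 2 edgeR called 18 of all genes and without WT 3 it called 101, with 0 of the 10 genes in either. KO and WT libraries overlapped for all 10 genes, while 19.9% of all genes had no overlap. The log2 folds of KO against WT had a median of 0.03 over the 10 genes, 6 above 0 and 4 below, beside 0.02 over all genes. Each fold below comes with its standard error (SE), from 2 KO and 3 WT libraries.

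Th, which sets the pace of the pathway, had 1032 and 1416 CPM in KO, against 871, 1583 and 1441 CPM in WT chromaffin-like nuclei. WT libraries lay on both sides of the KO libraries, and the fold was 0.03 ± 0.16 (SE; edgeR adjusted p = 0.992). Ddc had 565 and 496 CPM in KO, against 693, 654 and 535 CPM in WT. Its fold was -0.30 ± 0.16 (adjusted p = 0.927) and was below 0 within both annotations, -0.30 in the first and -0.26 in the second. Dbh had 349 and 411 CPM in KO, against 446, 496 and 300.1 CPM in WT, and its fold was -0.15 ± 0.22 (adjusted p = 0.943).

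Pnmt had 159 and 631 CPM in KO, against 243, 535 and 516 CPM in WT. The lowest values were those of KO 1 and WT 1, the libraries of the first annotation. The fold was -0.13 ± 0.20 (adjusted p = 0.947), with -0.62 within the first annotation and 0.26 within the second.

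Gch1 spread widely, with 275 and 1100.05 CPM in KO, against 365, 699.5 and 346 CPM in WT. The KO libraries held both the lowest and the highest of the 5 values. The fold of 0.45 ± 0.34 (adjusted p = 0.927) was -0.41 within the first annotation and 1.07 within the second. Without KO 2 it was -0.45, which again sets KO 1 against WT 1 and is no separate check. Cyb561 had 325 and 214 CPM in KO, against 254, 190.4 and 143 CPM in WT. Its fold of 0.34 ± 0.17 (adjusted p = 0.927) was 0.35 and 0.36 within the annotations.

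Slc18a1 had 855 and 519 CPM in KO, against 900.3, 677 and 779 CPM in WT, a fold of -0.33 ± 0.17 (adjusted p = 0.927) that was below 0 within both annotations. Slc18a2 had 178 and 167 CPM in KO, against 163, 189 and 155 CPM in WT, a fold of 0.02 ± 0.17 (adjusted p = 0.996). Neither carrier parted the groups. Maoa had 34.6 and 46.8 CPM in KO, against 37.9, 27.9 and 18.5 CPM in WT (fold 0.39 ± 0.32, adjusted p = 0.927). Maob had 78.9 and 93.6 CPM in KO, against 97.8, 54.8 and 48.9 CPM in WT (fold 0.25 ± 0.26, adjusted p = 0.930). Both oxidase genes were lower in KO within the first annotation and higher within the second. Of the 10 genes, 3 had the same sign in both annotations: Ddc, Slc18a1 and Cyb561.

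**Figure D4:**
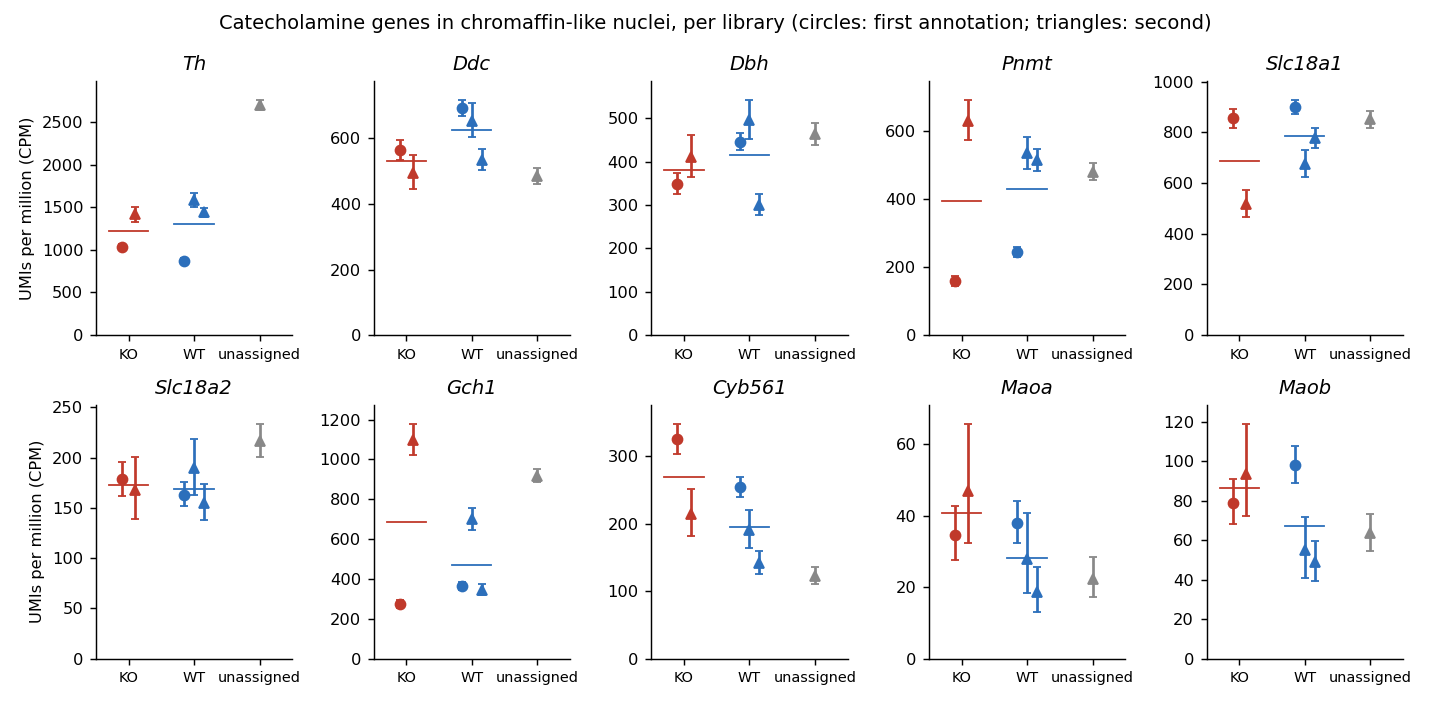
CPM of each gene in chromaffin-like nuclei, a point per library with its exact 95% Poisson interval and a line at the group mean (circles: first annotation, triangles: second). KO and WT points overlap in all 10 panels, KO 1 and WT 1 are the lowest points for Th and for Pnmt, and the unassigned library stands at 2699 CPM for Th.

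Thinned shares of chromaffin-like nuclei with a UMI made no call either. The two-sided exact permutation test has 10 splits of 2 against 3 libraries and cannot go below 0.1. Its smallest p over the 10 genes was 0.2, for Ddc, and 0.889 when adjusted over the 10. Ddc was seen in 36.2% and 35% of KO nuclei, against 47.7%, 39.3% and 40.9% of WT nuclei, which did not overlap. The KO mean was 35.6% ± 0.884 (SD, n = 2) and the WT mean 42.6% ± 4.47 (SD, n = 3). How many of all genes had no overlap in thinned shares was not computed. In CPM 19.9% of all genes had none, and there Ddc overlapped.

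In subcluster 0, 0 of the 10 genes passed the edgeR test beside 0.0805% of 9941 genes, and 0 passed by DESeq2 beside 0.0704%. At an unadjusted p under 0.05 there were 0 of the 10 and 493 of all genes. Gch1 in subcluster 0 had 299 and 1491 CPM in KO, against 514, 858 and 411 CPM in WT, a fold of 0.41 ± 0.36 (adjusted p = 0.994). Without KO 1, which leaves a lone KO library assumed to vary like the others, its fold was 1.23 and its adjusted p 0.0187. The fold within the first annotation was -0.78. KO and WT overlapped for all 10 genes, beside 20.3% of all genes that did not.

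In subcluster 1, 0 of the 10 genes passed beside 0.196% of 5602 genes, and 0 passed by DESeq2 beside 0.0357%. At an unadjusted p under 0.05 there were 311 of all genes and 1 of the 10. That gene was Gch1, with 237 and 402 CPM in KO, against 172, 246 and 159 CPM in WT. The groups overlapped by 1 library, WT 2. The fold was 0.75 ± 0.23 (edgeR adjusted p = 0.383), 0.46 within the first annotation and 0.99 within the second. Without WT 2 it was 0.81, with an edgeR adjusted p of 0.0355. In that fit 0.995% of 6833 genes passed, against 0.196% with no library left out.

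KO and WT did not overlap in subcluster 1 for 2 of the 10 genes, beside 21.8% of all genes. Slc18a2 had 349.7 and 387 CPM in KO, against 265, 288 and 321 CPM in WT, a fold of 0.40 ± 0.20 (adjusted p = 0.909). Ddc had 663 and 558 CPM in KO, against 795, 827 and 735 CPM in WT, a fold of -0.34 ± 0.19 (adjusted p = 0.980). Neither passed the test. Pnmt had a fold of 0.92 ± 0.62 (adjusted p = 0.984) on the few UMIs given above. It was 2.07 without KO 1, -0.42 without KO 2 and -1.20 with doublets kept, and too few UMIs were left for a test without WT 2.

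**Figure D5:**
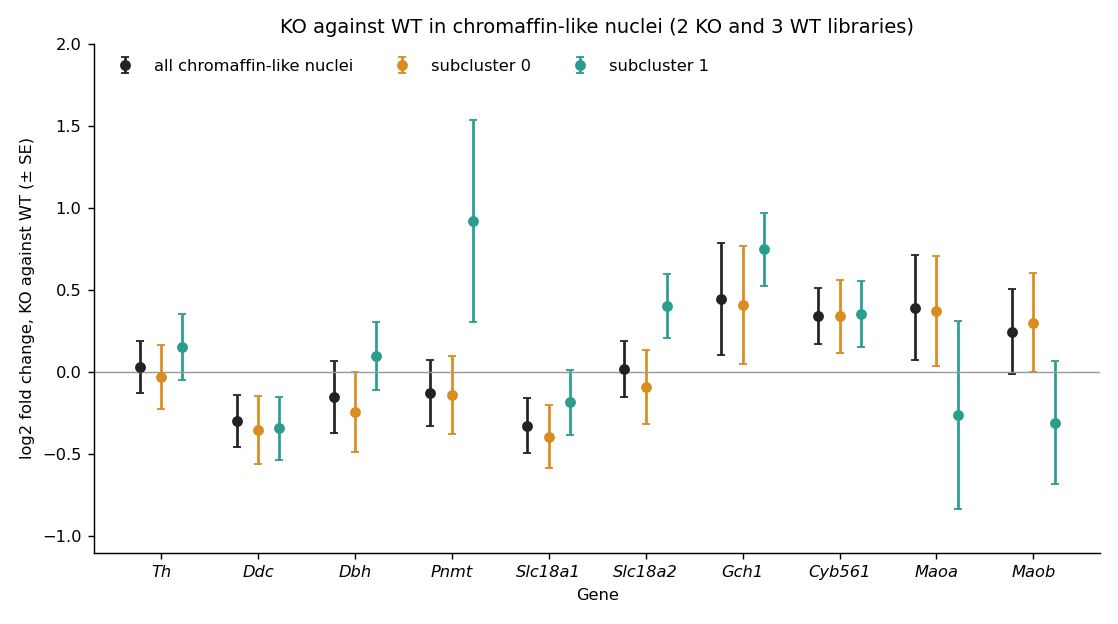
Log2 fold of KO against WT with its SE for the 10 genes in all chromaffin-like nuclei, in subcluster 0 and in subcluster 1, from 2 KO and 3 WT libraries. No adjusted p is under 0.05, and the fold farthest from 0, 0.92 for Pnmt in subcluster 1, has an SE of 0.62.

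Whether the KO effect differed between the 2 subclusters was tested as an interaction, with the library as a block. None of the 10 genes passed, beside 0.164% of 8538 genes. Pnmt differed the most, with a fold in subcluster 0 minus that in subcluster 1 of -1.09 ± 0.43 (SE; edgeR adjusted p = 0.887). With doublets kept the difference was 1.15. Pnmt was the only one of the 10 at an unadjusted p under 0.05, beside 425 of all 8538 genes. DESeq2 was not run for this test. For Gch1 the difference was -0.58 ± 0.32 (edgeR adjusted p = 0.997), and without KO 2, which leaves 1 KO library, it was -1.36.

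The shares of the subclusters did not part KO from WT. Subcluster 0 took 57.2% and 48.8% of chromaffin-like nuclei in KO, against 49.3%, 50.2% and 63.3% in WT (exact permutation p = 0.8). Subcluster 1 took 24.3% and 21.5% in KO, against 32.9%, 28.1% and 19.8% in WT (exact permutation p = 0.5). KO 1 had a lower share of subcluster 1 than WT 1 within the first annotation, and KO 2 lay between WT 2 and WT 3 within the second.

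Over the 11 classes tested, chromaffin-like nuclei included, 57 edgeR tests of the 10 genes were possible and 0 passed. DESeq2 passed 0 where it gave an adjusted p, beside 0% to 0.304% of all genes in a class. At an unadjusted p under 0.05 in edgeR there were 6 of the 57. Over all genes the same threshold took 1368 of 12172 in zona glomerulosa-like and 505 of 6746 in adipocyte-like nuclei. In macrophage-like nuclei it took 383 of 7146 and in X-zone- or inner cortex-like nuclei 251 of 7735. These were the classes of the 6. All 10 genes were tested in zona fasciculata-like nuclei, where 0% of all genes passed, and in zona glomerulosa-like nuclei, where 0.394% did. Of the 10, 9 were tested in endothelial-like (0.00949% of all genes passed), 6 in capsule- or fibroblast-like (0.0577%) and 5 in X-zone- or inner cortex-like nuclei (0%). In adipocyte-like (0.237%) and macrophage-like nuclei (0.07%) 3 were tested, and in pericyte- or smooth muscle-like nuclei (0%) only Th. Schwann- or sustentacular-like and T or NK-like nuclei had too few UMIs of the 10 genes.

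Of the 6 with an unadjusted p under 0.05, 4 were Th outside the chromaffin-like class. Its folds were 0.78 ± 0.28 in zona glomerulosa-like, 1.197 ± 0.47 in macrophage-like, 1.29 ± 0.49 in X-zone- or inner cortex-like and 1.21 ± 0.55 in adipocyte-like nuclei, with edgeR adjusted p of 0.314 to 1.000. Beside this, chromaffin-like nuclei were 7.53% and 9.14% of all nuclei in KO, against 6.39%, 6.73% and 5.01% in WT (exact permutation p = 0.1, the smallest possible). The 16 chromaffin markers summed in zona glomerulosa-like nuclei to 127 and 143 CPM in KO, against 87.0, 102 and 46.7 CPM in WT, with 1 or 2 of them at 0. Their part in the Th folds was not tested. Pnmt was the other such gene beside Maoa, with a fold of 0.88 ± 0.40 in zona glomerulosa-like nuclei (adjusted p = 0.426).

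Maoa had its highest class level in zona glomerulosa-like nuclei, with 69.1 and 71.1 CPM in KO, against 106, 81.8 and 90.7 CPM in WT and 74.1 CPM in the unassigned library. KO and WT did not overlap, as for 3 of the 10 genes (Th, Slc18a1 and Maoa) and 24.6% of all genes in this class. The KO side was the lower one within each annotation, by a log2 fold of -0.62 in the first and -0.28 in the second. The fold was -0.48 ± 0.15, but its edgeR adjusted p of 0.253 made no call. Of 20 marker lists, 5 did not overlap between KO and WT in this class either, the chromaffin list among them. The 12 zona glomerulosa markers summed to 7598 and 7747 CPM in KO, against 8047, 7970.1 and 9239 CPM in WT, with none at 0. The 10 capsule or fibroblast markers summed to 75.7 and 70.2 CPM in KO, against 47.0, 49.8 and 59.2 CPM in WT, with at most 1 at 0. T or NK markers summed to 386 and 397 CPM in KO, against 317, 289 and 301 CPM in WT, and adipocyte markers to 36.4 and 38.7 CPM in KO, against 13.2, 32.5 and 13.4 CPM in WT. Their part in the Maoa fold was not tested. Maob had 30.7 and 20.7 CPM in KO, against 34.6, 28.6 and 44.3 CPM in WT there (fold -0.45 ± 0.24, adjusted p = 0.513). In zona fasciculata-like nuclei Maoa had 42.9 and 32.8 CPM in KO, against 45.0, 40.5 and 35.2 CPM in WT (fold -0.18 ± 0.25, adjusted p = 0.998).

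Summed over all nuclei, 0 of the 10 genes and 0% of 16590 genes passed edgeR's test, and 0 of the 10 and 0.35% of all genes passed by DESeq2. At an unadjusted p under 0.05 there were 1 of the 10 and 1155 of all genes. KO and WT did not overlap for 3 of the 10 genes, beside 19.2% of all genes. Maoa had 42.7 and 41.1 CPM in KO, against 59.0, 45.5 and 46.9 CPM in WT (fold -0.36 ± 0.15, edgeR adjusted p = 0.711). Maob had 30.5 and 31.2 CPM in KO, against 26.7, 22.6 and 24.6 CPM in WT (fold 0.25 ± 0.17, adjusted p = 0.752). Cyb561 had 67.5 and 51.3 CPM in KO, against 45.0, 44.6 and 25.3 CPM in WT (fold 0.53 ± 0.24, adjusted p = 0.711). In such sums the number of nuclei of a class and the RNA in each cannot be told apart.

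A list of 36 other pathway genes, of which all libraries list 35, covers tetrahydrobiopterin synthesis, the supply of precursors and cofactors, the vesicle proton pump, uptake and breakdown. In chromaffin-like nuclei 25 were tested and 0 passed edgeR's test in either direction, with 17 folds above 0 and 8 below and a median of 0.14, beside 0.02 over all genes. Over all classes 194 tests gave 0 calls, beside 0% to 0.4% of all genes called in a class. At an unadjusted p under 0.05 there were 3 of the 25 in chromaffin-like nuclei, beside 565 of all 11044 genes. These 3 were named after their values were seen. Atp7a, a copper pump, stood at -0.89 ± 0.23 and Slc7a8, an amino acid carrier, at 0.38 ± 0.16. Spr, which completes tetrahydrobiopterin, stood at 1.58 ± 0.67. Their edgeR adjusted p were 0.743, 0.927 and 0.927. Atp7a had 176 and 153 CPM in KO, against 231, 422 and 334 CPM in WT, with no overlap, as for 19.9% of all genes.

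The list's highest levels in chromaffin-like nuclei were those of Slc31a1, which takes up the copper that Dbh needs, and of the proton pump subunits Atp6v0a1 and Atp6v1b2. Slc31a1 had 401 and 705 CPM in KO and 451, 566 and 429 CPM in WT chromaffin-like nuclei, and 36.9 and 32.7 CPM in KO and 30.2, 31.6 and 37.6 CPM in WT in the other nuclei. Atp6v0a1 had 311 and 271 CPM in KO and 326, 365 and 305 CPM in WT, and Atp6v1b2 184 and 431 CPM in KO and 254, 297 and 302 CPM in WT chromaffin-like nuclei. All 3 overlapped between KO and WT.

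Outside the class the list's highest levels included those of Slc23a2, an ascorbate carrier, and Aldh2, an aldehyde dehydrogenase. Slc23a2 had 268 and 245 CPM in KO and 273, 268 and 632 CPM in WT, with WT 3 far above the others, and 834 CPM in the unassigned library. Aldh2 had 184 and 186 CPM in KO and 184, 191 and 162 CPM in WT outside, and 40.7 and 42.5 CPM in KO and 33.4, 41.4 and 25.7 CPM in WT in chromaffin-like nuclei. Aldh2 was lower in chromaffin-like than in other nuclei in every library.

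Other annotated genes overlap 5 of the 10: 1700042O10Rik at Ddc, Gm15716 and Atp6v1b2 at Slc18a1, Gm29261 at Slc18a2, Gm49134 and Gm18811 at Gch1, and Gm9910 at Cyb561. All but Gm18811 lie on the opposite strand. The sources used here do not say whether counting used strand or introns, so these 5 levels and that of Atp6v1b2 are uncertain to that extent.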

How the data were processed

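The authors deposited UMI counts for each gene in each barcode. They were made with Cell Ranger, version 4.0.0 for KO 1 and WT 1 and 3.1.0 for the others per the file headers; the submitters' processing notes also name Seurat and mm10. Replicates are numbered in accession order. Barcodes with at least 300 genes and under 5% mitochondrial UMIs were kept (48 removed), and the highest scrublet scores, 0.8% per 1000 barcodes, were removed as doublets (644). Libraries held 4825169 to 43377724 UMIs. Counts were scaled and 2000 variable genes chosen with scanpy 1.11.5. Their 30 components were aligned over libraries with a purpose-written version of the Harmony method, not the published package. Nuclei were clustered on a graph of neighbouring nuclei with leidenalg 0.10.2 at a Leiden resolution of 0.8. Clusters were named where at least 3 markers passed a log2 fold of 1 in 10% of nuclei. Chromaffin-like nuclei were subclustered on 1000 genes and 15 components at a resolution of 0.3.

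Counts summed per library and class were tested with edgeR 4.0.16 (quasi-likelihood, TMM, filterByExpr, annotation as a batch term) on all genes of the class, with Benjamini-Hochberg adjustment at 0.05, where each KO and WT library gave at least 20 nuclei. The model was tested on simulated data. DESeq2 1.42.0 in R 4.3.3, other size factors, no filter, no batch term, each library left out, other filters on nuclei, resolutions and thinning depths were alternatives. CPM come with exact Poisson intervals at 95%, for counting error only.

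The members and lists were chosen with earlier results of these data known. All 10 members are named, with the pathway genes that pass a test, the 3 highest of that list inside and the 3 highest outside chromaffin-like nuclei, and the 5 genes with the pattern most like Th, Pnmt, Maoa and Maob (levels over 5 CPM, log of CPM plus 10). Some genes of these lists are not reported here. Gene spans come from GENCODE and start-site windows from RefSeq. The Maoa window was not printed, and Pnmt, Slc18a1, Cyb561 and Maob were not analysed for windows.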

Additional observations from a re-analysis of the deposited data

Results flagged for a closer look

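The library whose title and genotype field disagree entered no test. Its levels were set beside those of WT for the 10 genes only, and the share of all genes above WT was not computed. For 2 of the 10 genes its counting interval lay above those of all WT libraries, in chromaffin-like nuclei and in both subclusters. Th stood at 2699 CPM (exact 95% Poisson interval 2640.1 to 2758) in its chromaffin-like nuclei, above the highest KO library at 1416 CPM and the highest WT library at 1583 CPM. In subcluster 0 Th had 3122 CPM (exact 95% Poisson interval 3046 to 3199), against at most 1669 CPM in KO and 2091 CPM in WT. In subcluster 1 it had 1272 CPM (exact 95% Poisson interval 1182 to 1368), against at most 729 CPM in KO and 823 CPM in WT. For Th this library was thus the highest of the 6 in all of these.

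Gch1 had 919.6 CPM (exact 95% Poisson interval 886 to 955) in the chromaffin-like nuclei of this library, between the highest KO library at 1100.05 CPM and the highest WT library at 699.5 CPM. In subcluster 0 it had 1132 CPM (exact 95% Poisson interval 1087 to 1179), against at most 1491 CPM in KO and 858 CPM in WT. In subcluster 1 it had 399.6 CPM (exact 95% Poisson interval 349 to 455), against at most 402 CPM in KO and 246 CPM in WT. KO 2 was the higher one each time. The intervals cover counting error only, and which group the library belongs to was not inferred from these values.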

How the results depend on the processing

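Under every alternative that keeps all libraries, none of the 10 genes was called in chromaffin-like nuclei, in either subcluster, in the interaction or in the other classes. All genes called in chromaffin-like nuclei numbered 11 with DESeq2 and 102 with no filter on low counts, against 0, and 0 to 101 with 1 library left out. The cause of these changes was not tested. Over all alternatives the genes called ranged from 0 to 278 in zona glomerulosa-like and from 0 to 375 in all nuclei. With 1 library left out, Gch1 alone of the 10 genes was called in some fits of the subclusters and of the interaction. In subcluster 1 without WT 2, 0.995% of 6833 genes passed, against 0.196% of 5602 with no library left out. Where 1 KO library remains, it is assumed to vary like the others.

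Folds near 0 changed sign, and some farther from 0 did too. In chromaffin-like nuclei Th was -0.014 with no filter, -0.13 with no batch term and -0.0090 in nuclei of at least 1000 genes, and Slc18a2 was -0.024, -0.0056 and -0.0010. In subcluster 0 Th was 0.024 with doublets kept, 0.00083 with the 10 genes allowed in the clustering, and 0.020 and 0.0038 at subcluster resolutions of 0.2 and 0.6. In subcluster 1 with doublets kept, Th was -0.0043, Dbh -0.037 and Maoa 0.039. Pnmt was -1.20 there, against 0.92 with doublets removed, and Maob was 0.31, against -0.31. The Pnmt difference between subclusters was 1.15 with doublets kept, against -1.09. In subcluster 1 Dbh was -0.014 in nuclei of at least 1000 genes and -0.098 at resolution 0.6.

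With 1 library left out, the chromaffin-like folds ran over -0.12 to 0.19 for Th, -0.40 to 0.025 for Dbh, -0.67 to 0.24 for Pnmt, -0.064 to 0.099 for Slc18a2, -0.45 to 1.05 for Gch1, -0.18 to 1.03 for Maoa and -0.36 to 0.83 for Maob. In subcluster 0 they ran over -0.17 to 0.14 for Th, -0.87 to 0.37 for Pnmt, -0.24 to 0.034 for Slc18a2, -0.83 to 1.23 for Gch1 and -0.40 to 1.04 for Maob. In subcluster 1 they ran over -0.19 to 0.37 for Dbh, -0.42 to 2.08 for Pnmt, -0.85 to 0.67 for Maoa and -0.60 to 0.25 for Maob.

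The share of subcluster 0, KO minus WT, was 1.92 and 1.53 points at resolutions of 0.2 and 0.6, against -1.25 at 0.3, and -5.44 to 3.25 with 1 library left out. Shares of nuclei with a UMI, KO minus WT, became 1.56 for Th, 0.720 for Pnmt and -2.41 points for Slc18a2 at 500 UMIs, and 1.19 for Th and -1.67 for Slc18a2 at 2000 UMIs. With no thinning they were -11.1 for Slc18a2, -5.24 for Gch1, -8.03 for Cyb561, -2.21 for Maoa and -6.07 for Maob. With 1 library left out they ran over -5.54 to 4.69 for Th, -11.4 to 7.80 for Pnmt, -10.6 to 2.21 for Slc18a1, -1.38 to 3.46 for Slc18a2, -5.37 to 25.7 for Gch1, -2.72 to 9.59 for Cyb561 and -1.10 to 1.78 for Maoa.

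No paired analysis was possible because the labels give no replicate numbers. Leaving out subclusters 4 to 6, chosen after seeing the data, called 0 of the 10 genes and 0 of all genes. Of 928 values recomputed, 753 kept their direction and side of the threshold, or their count within 1.5 times. Of the rest, 100 were counts that moved further, 73 changed sign and 2 gained a call. Pnmt in subcluster 1 rests on 5 to 25 UMIs in each KO and WT library.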
